A study of Mus musculus with 9 samples.

Results

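The 40 genes described here are interferon-stimulated genes, chosen by symbol from a list and covering interferon signalling factors, nucleic acid sensors, antiviral effectors, and interferon-inducible GTPases. The list was chosen with earlier results of these data known. All 40 symbols matched 1 row each among the 38087 genes of the deposited table, all 40 had reads in every library, and all 40 reached the minimum mean of 10 normalized reads in each comparison. Their values were read in the medial colon of mice with dextran sulfate sodium (DSS) colitis, a chemical model of colorectal inflammation. The study asked how human mesenchymal stem cells (MSCs) act on this colitis.

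Each group had 3 libraries, called biological replicates in the labels. UC-MSC colons came from mice injected with human MSCs from umbilical cord tissue, AD-MSC colons from mice injected with human MSCs from adipose tissue, and control colons from mice injected with phosphate-buffered saline (PBS). All mice were C57BL/6 males, 10 to 12 weeks old, and all groups, control included, had DSS colitis, so no healthy colon was compared here. Cells or PBS were given into a vein, and the tissue was taken the next day. The injected cells were human, came from different donors for the 2 tissues of origin, and were read against a mouse gene table.

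Interferons are secreted proteins that signal to neighbouring cells after a virus, bacterium or damaged cell has been sensed. Type I and type III interferons activate the Janus kinases and a complex that holds Stat2 and Irf9 and binds the interferon-stimulated response element (ISRE), whereas interferon gamma acts mainly through the gamma-activated site (GAS). In the intestine, interferon responses are known in epithelial cells and in immune cells of the lamina propria.

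Reads are given as normalized reads, the authors' group mean per gene after size factor scaling. A difference is the log2 group mean of the first named group minus that of the other. The deposited table holds 1 mean per group, so the spread between mice is unknown and no test between groups was possible. Genes were instead counted as at least 1.5-fold or at least 2-fold higher or lower, beside the share of all genes compared that passed the same limit. The interval in parentheses after a log2 difference is a 95% interval from read counts, which covers counting error only and is narrower than an interval that included the spread between mice. Summed over genes, the raw group means came to 5034908 reads in UC-MSC, 8222017 in AD-MSC and 7295598 in control colons, so the UC-MSC values rested on the fewest reads. Colon epithelium markers were abundant in every group, with 11004, 10885 and 10305 normalized reads of Epcam, an epithelial adhesion protein, in UC-MSC, AD-MSC and control colons.

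Promoter sequence was examined because the 2 classic elements of interferon control are short and readable. Promoters from 250 bases before to 50 bases after the start site (RefSeq, GRCm38.p6) were found for 31 of the 40 genes, or 77.5%. No entry was matched for Dhx58, Zbp1, Oas2, Usp18, Mx1, Mx2, Iigp1, Parp14 or Rtp4, and since fewer than 80% had one, expression was not compared by motif. The ISRE letters searched were TTTCNNTTTC, or GAAANNGAAA on the other strand, and the GAS letters were TTCNNNGAA, which read the same on both strands. The following 140 bases upstream of the start site are shown for some of the genes with ISRE or GAS letters there, in capitals. The choice does not follow the expression differences. Isg15 and Bst2, whose intervals against control held 0, are shown, and Gbp2, which holds ISRE letters in this stretch, is not. Where both elements touch, the capitals run on.
Rsad2 (chr12:26456453-26456592, minus strand): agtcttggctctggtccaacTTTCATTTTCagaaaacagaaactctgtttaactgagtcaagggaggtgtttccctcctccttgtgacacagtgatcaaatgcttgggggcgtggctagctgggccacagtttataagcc
Ifit1 (chr19:34640749-34640888, plus strand): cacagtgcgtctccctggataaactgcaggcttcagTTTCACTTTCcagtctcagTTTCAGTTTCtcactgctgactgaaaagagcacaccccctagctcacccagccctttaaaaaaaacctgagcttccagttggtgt
Isg15 (chr4:156200819-156200958, minus strand): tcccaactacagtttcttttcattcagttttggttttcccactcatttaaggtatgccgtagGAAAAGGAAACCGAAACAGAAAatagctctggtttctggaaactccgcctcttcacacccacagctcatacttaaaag
Irf1 (chr11:53769874-53770013, plus strand): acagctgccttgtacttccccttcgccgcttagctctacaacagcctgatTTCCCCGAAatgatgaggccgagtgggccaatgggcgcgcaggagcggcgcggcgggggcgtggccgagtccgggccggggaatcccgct
Gbp3 (chr3:142559904-142560043, plus strand): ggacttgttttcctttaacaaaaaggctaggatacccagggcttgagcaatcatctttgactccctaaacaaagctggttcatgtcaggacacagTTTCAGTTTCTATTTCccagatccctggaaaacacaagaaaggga
Gbp7 (chr3:142530196-142530335, plus strand): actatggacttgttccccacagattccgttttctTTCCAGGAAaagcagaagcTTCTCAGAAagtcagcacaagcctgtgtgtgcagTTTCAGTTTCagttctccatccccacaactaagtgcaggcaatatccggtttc
Igtp (chr11:58199416-58199555, plus strand): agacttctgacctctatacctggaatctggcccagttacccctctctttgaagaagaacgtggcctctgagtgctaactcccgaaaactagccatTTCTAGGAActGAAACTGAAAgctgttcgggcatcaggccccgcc
Irgm2 (chr11:58214837-58214976, plus strand): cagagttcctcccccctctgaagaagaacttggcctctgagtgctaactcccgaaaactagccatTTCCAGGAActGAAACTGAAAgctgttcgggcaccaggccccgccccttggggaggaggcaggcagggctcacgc
Bst2 (chr8:71537473-71537612, minus strand): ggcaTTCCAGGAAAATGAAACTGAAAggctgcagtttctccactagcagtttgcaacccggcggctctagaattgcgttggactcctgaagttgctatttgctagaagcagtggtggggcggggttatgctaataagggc

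The ISRE letters lay in the promoter of 18 of the 31 genes (58.1%), against 3.99% of the 27025 genes with a promoter entry. The GAS letters lay in 11 of 31 (35.5%), against 9.55% of genes. Counted over promoters, of which a gene can have several, the shares were 3.44% and 8.30% of 32851. Ifit1 held 2 ISRE matches, beginning 104 and 85 bases before the start, and Isg15 held 3 that overlapped, beginning 78, 72 and 66 bases before it. Rsad2 held 1 ISRE match at 120 bases and Irf1 held 1 GAS match at 90 bases. Igtp and Irgm2, which encode related GTPases, each held a GAS match followed by an ISRE match 11 bases further on. Both kinds of letters were found in Oas1a, Bst2, Eif2ak2, Gbp5, Gbp7, Igtp and Irgm2. Neither was found in the window of Irf9, Irf7, Oasl1, Oasl2, Trim25, Cmpk2, Ifi47, Ifi44 or Xaf1. A match is a run of letters and not a measured binding site.

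Most of the genes were higher in the MSC-injected colons than in control colons. Their summed level was 12745 normalized reads in UC-MSC and 14020 in AD-MSC colons, against 9727 in control colons. Against control, 35 of the 40 genes (87.5%) were higher in UC-MSC colons, where 48.3% of all 15026 genes compared were higher, and 35 of 40 were higher in AD-MSC colons, where 48.9% of all 14960 genes were. Both comparisons use the same control libraries, so their counts are not independent of each other. Because the 40 genes were chosen with earlier results of these data known, their shares beside all genes are a description and not a test.

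In UC-MSC colons the median log2 difference of the 40 genes from control was 0.39, against -0.02 for all genes. At least 1.5-fold higher were 12 of 40 (30%), beside 14.4% of all genes, and at least 2-fold higher were Gbp2 and Ifit2, or 5.0% of the 40 beside 5.09% of all genes, which is a share near the background. None of the 40 was at least 1.5-fold lower, beside 9.88% of all genes (2.66% at least 2-fold lower). Under equal totals of normalized reads per group, a scaling that lowered every UC-MSC difference from control by 0.13, 31 of 40 were higher and the median was 0.26, against -0.15 for all genes. At least 1.5-fold higher were then 7 genes, beside 10.6% of all genes, and neither Gbp2 nor Ifit2 reached 2-fold. Usp18, Iigp1, Ifi44, Xaf1 and Rtp4 were those no longer at least 1.5-fold higher. The genes that changed side under this scaling were Irf9, Ddx58, Cmpk2 and Irgm1.

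In AD-MSC colons the median difference from control was 0.54, against -0.01 for all genes. At least 1.5-fold higher were 16 of 40 (40%), beside 6.57% of all genes. The 5 genes at least 2-fold higher (12.5%, beside 1.69%) were Rtp4, Rsad2, Ifit2, Ifit1 and Oasl2. None was at least 1.5-fold lower, beside 6.62% of all genes (2.01% at least 2-fold lower). The upper 5% of all genes began at a difference of 0.665 in AD-MSC colons, and 15 of the 40 (37.5%) lay above it. In UC-MSC colons the upper 5% began at 1.01, and Gbp2 was the member above it. The whole distribution was therefore wider in UC-MSC than in AD-MSC colons, so a gene with the same difference ranked lower in UC-MSC colons.

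**Figure D1:**
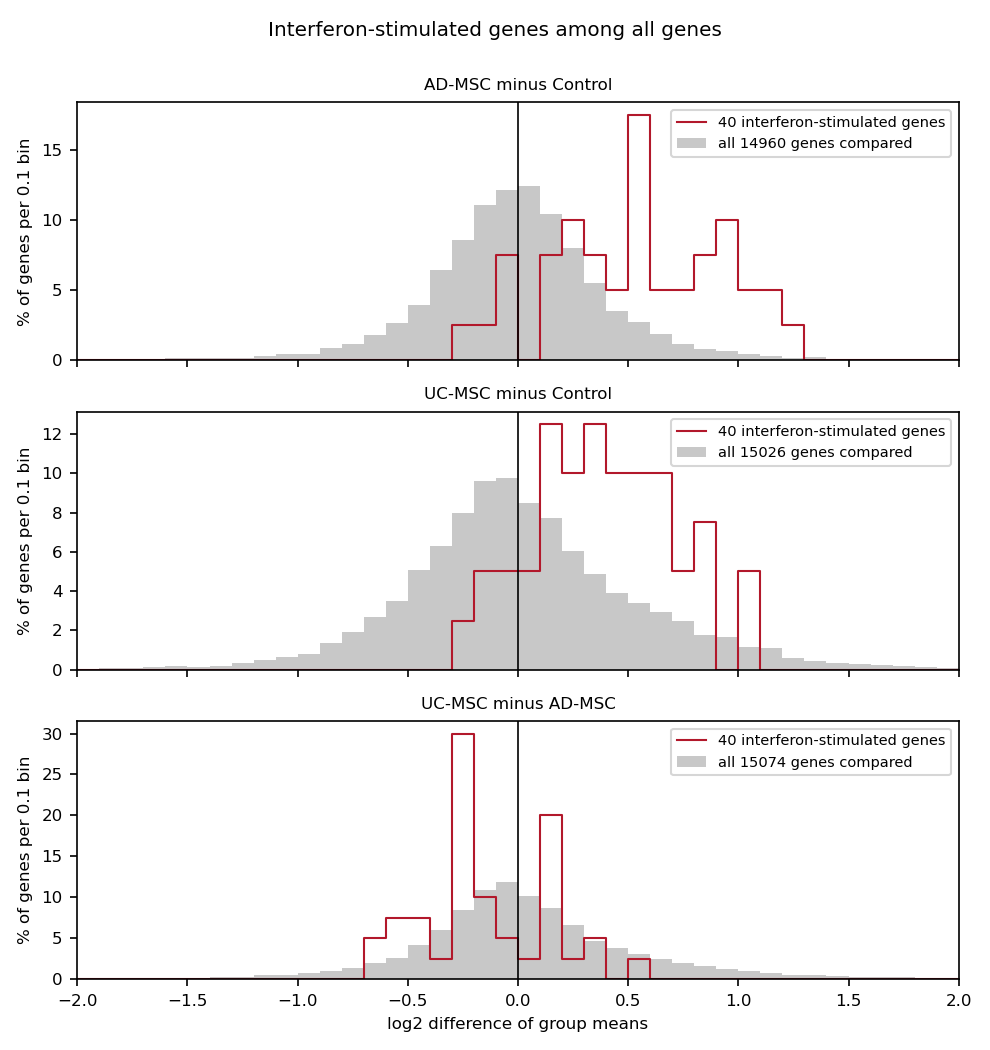
Percent of genes in each 0.1-wide bin of the log2 difference, for all genes compared (grey bars) and the 40 interferon-stimulated genes (red line), in the 3 comparisons; genes beyond 2 on either side are not drawn. The red line is shifted to the right in both comparisons with control (medians 0.54 for AD-MSC and 0.39 for UC-MSC) and to the left in UC-MSC minus AD-MSC (median -0.21).

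Among the signalling and transcription factors, all 4 genes were higher in both MSC groups than in control, except that Irf9 changed side in UC-MSC colons under equal totals. Stat2, the activating subunit of the complex that binds the ISRE, had 313 normalized reads in UC-MSC, 380.5 in AD-MSC and 268 in control colons. Irf9, the DNA-binding subunit of the same complex, had 342 normalized reads in UC-MSC, 409 in AD-MSC and 316 in control colons. Irf7 amplifies interferon production once induced, and it had 289 normalized reads in UC-MSC and 397 in AD-MSC colons, against 208 in control colons. It differed most in this group, 1.91-fold in AD-MSC (log2 difference 0.93, 0.81 to 1.06) and 1.39-fold in UC-MSC colons (0.48, 0.32 to 0.63). Irf1, a factor induced by interferon gamma that carries the GAS letters shown above, had 1153 normalized reads in UC-MSC, 1298 in AD-MSC and 874 in control colons, and its differences were 0.57 in AD-MSC and 0.40 in UC-MSC colons.

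All 4 nucleic acid sensors had higher values in both MSC groups than in control colons, except that Ddx58 changed side in UC-MSC colons under equal totals. Ddx58 (RIG-I), the sensor of short viral RNA, had 152 normalized reads in UC-MSC, 217 in AD-MSC and 149 in control colons, so it was 1.46-fold higher in AD-MSC than in control colons and differed by 0.03 in UC-MSC (-0.17 to 0.23). Ifih1 (MDA5), which senses long double-stranded RNA, had 804 normalized reads in UC-MSC and 910.1 in AD-MSC colons, against 624 in control colons, and both differences from control were above counting error. Zbp1, a sensor of left-handed nucleic acid that can start necroptosis, had 719 normalized reads in UC-MSC, 579 in AD-MSC and 436 in control colons. Unlike the first pair it was highest in UC-MSC colons, 1.65-fold over control (0.72, 0.62 to 0.82) against 1.33-fold in AD-MSC colons (0.41, 0.31 to 0.50). Dhx58 (LGP2), a regulator of the other sensors, had 96.3 normalized reads in UC-MSC, 86.4 in AD-MSC and 77.0 in control colons, and its interval held 0 in AD-MSC colons (-0.07 to 0.40).

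The IFIT genes, whose products bind foreign RNA and block its translation, had the greatest median difference of any role in both MSC groups, 1.05 in AD-MSC and 0.83 in UC-MSC colons. The 3 genes lie close together on chromosome 19, within 52.1 kb of the next member. Ifit1 (chr19:34640871-34650009) had 163 normalized reads in UC-MSC and 190.1 in AD-MSC colons, against 91.5 in control colons, which was 2.08-fold higher in AD-MSC (1.05, 0.86 to 1.25) and 1.78-fold higher in UC-MSC colons (0.83, 0.61 to 1.05). Ifit2 (chr19:34550694-34576419) had 199 normalized reads in UC-MSC, 223 in AD-MSC and 98.9 in control colons, and it was the gene at least 2-fold higher in both MSC groups, 2.01-fold in UC-MSC (1.01, 0.80 to 1.21) and 2.26-fold in AD-MSC (1.18, 0.99 to 1.36). Ifit3 had 108 normalized reads in UC-MSC, 93.9 in AD-MSC and 64.7 in control colons. Its value is uncertain because 51.2% of its 50-base stretches also occur in Ifit3b.

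The OAS family includes enzymes that make oligoadenylates, which activate an RNA-cutting enzyme. Oasl2 had 320.3 normalized reads in UC-MSC and 455 in AD-MSC colons, against 222 in control colons, 2.05-fold higher in AD-MSC (1.04, 0.91 to 1.16) and 1.45-fold higher in UC-MSC colons (0.53, 0.38 to 0.68). Oasl1, which in mice restrains the translation of Irf7, had 96.2 normalized reads in UC-MSC, 130.0 in AD-MSC and 87.6 in control colons. Its difference was 0.57 in AD-MSC colons, and in UC-MSC colons the interval held 0 (-0.12 to 0.39). Oas3 had 43.4 normalized reads in UC-MSC, 55.6 in AD-MSC and 31.5 in control colons, and it too was highest in AD-MSC colons. Oas2 ran the other way, with 43.6 normalized reads in UC-MSC and 29.3 in AD-MSC colons, against 24.0 in control colons: it was 1.82-fold higher in UC-MSC colons (0.86, 0.43 to 1.29), and in AD-MSC colons the interval held 0 (-0.13 to 0.70). Oas2 and Oas3 are neighbours, 3.25 kb apart on chromosome 5. Oas1a had 108 normalized reads in UC-MSC, 129.8 in AD-MSC and 120.0 in control colons, with 57.6% of its 50-base stretches shared with Oas1g, and both intervals against control held 0.

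In the ISG15 system the protease differed more than the modifier. Isg15, a ubiquitin-like protein joined to other proteins during the response, had 31.6 normalized reads in UC-MSC, 29.0 in AD-MSC and 26.5 in control colons, and both intervals against control held 0 (-0.20 to 0.71 in UC-MSC and -0.27 to 0.53 in AD-MSC). Usp18 removes ISG15 from its targets and dampens the interferon receptor. It had 43.1 normalized reads in UC-MSC and 50.1 in AD-MSC colons, against 26.5 in control colons, 1.62-fold higher in UC-MSC (0.70, 0.28 to 1.12) and 1.89-fold higher in AD-MSC colons (0.92, 0.56 to 1.28). Trim25, a ubiquitin ligase that acts on the RIG-I pathway, had 1492 normalized reads in UC-MSC, 1596 in AD-MSC and 1353 in control colons, with small differences of 0.14 and 0.24 in UC-MSC and AD-MSC colons that lay above counting error.

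The Mx genes encode antiviral GTPases, and C57BL/6 mice are known to carry defective alleles of Mx1. Mx1 had 34.7 normalized reads in UC-MSC, 33.7 in AD-MSC and 35.7 in control colons. Mx2 had 16.4 normalized reads in UC-MSC and 14.5 in AD-MSC colons, against 12.6 in control colons, the lowest reads of the 40 genes. All intervals for both genes held 0 in the 3 comparisons, so a difference was not detectable at this depth.

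The other antiviral effectors took both directions. Rsad2 (viperin), an enzyme that makes a chain-terminating nucleotide, had 44.7 normalized reads in UC-MSC, 69.4 in AD-MSC and 30.5 in control colons. It was 2.28-fold higher in AD-MSC (1.19, 0.86 to 1.51) and 1.47-fold higher in UC-MSC colons (0.55, 0.15 to 0.95). Cmpk2, a mitochondrial nucleotide kinase gene 12.8 kb from Rsad2 on chromosome 12, had 46.2 normalized reads in UC-MSC, 73.0 in AD-MSC and 45.7 in control colons. Both neighbours were therefore higher in AD-MSC colons, whereas Cmpk2 differed by 0.02 between UC-MSC and control colons (-0.35 to 0.38). Isg20, an exonuclease, had 138 normalized reads in UC-MSC and 126 in AD-MSC colons, against 155 in control colons, and it was the gene whose AD-MSC interval lay wholly below control (-0.29, -0.47 to -0.11). Bst2 (tetherin), which holds budding virus at the cell surface, had 25.8 normalized reads in UC-MSC, 20.7 in AD-MSC and 23.0 in control colons. Eif2ak2 (PKR), which shuts down translation on double-stranded RNA, had 511 normalized reads in UC-MSC, 524 in AD-MSC and 548 in control colons. The intervals of Bst2 and Eif2ak2 against control held 0.

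**Figure D2:**
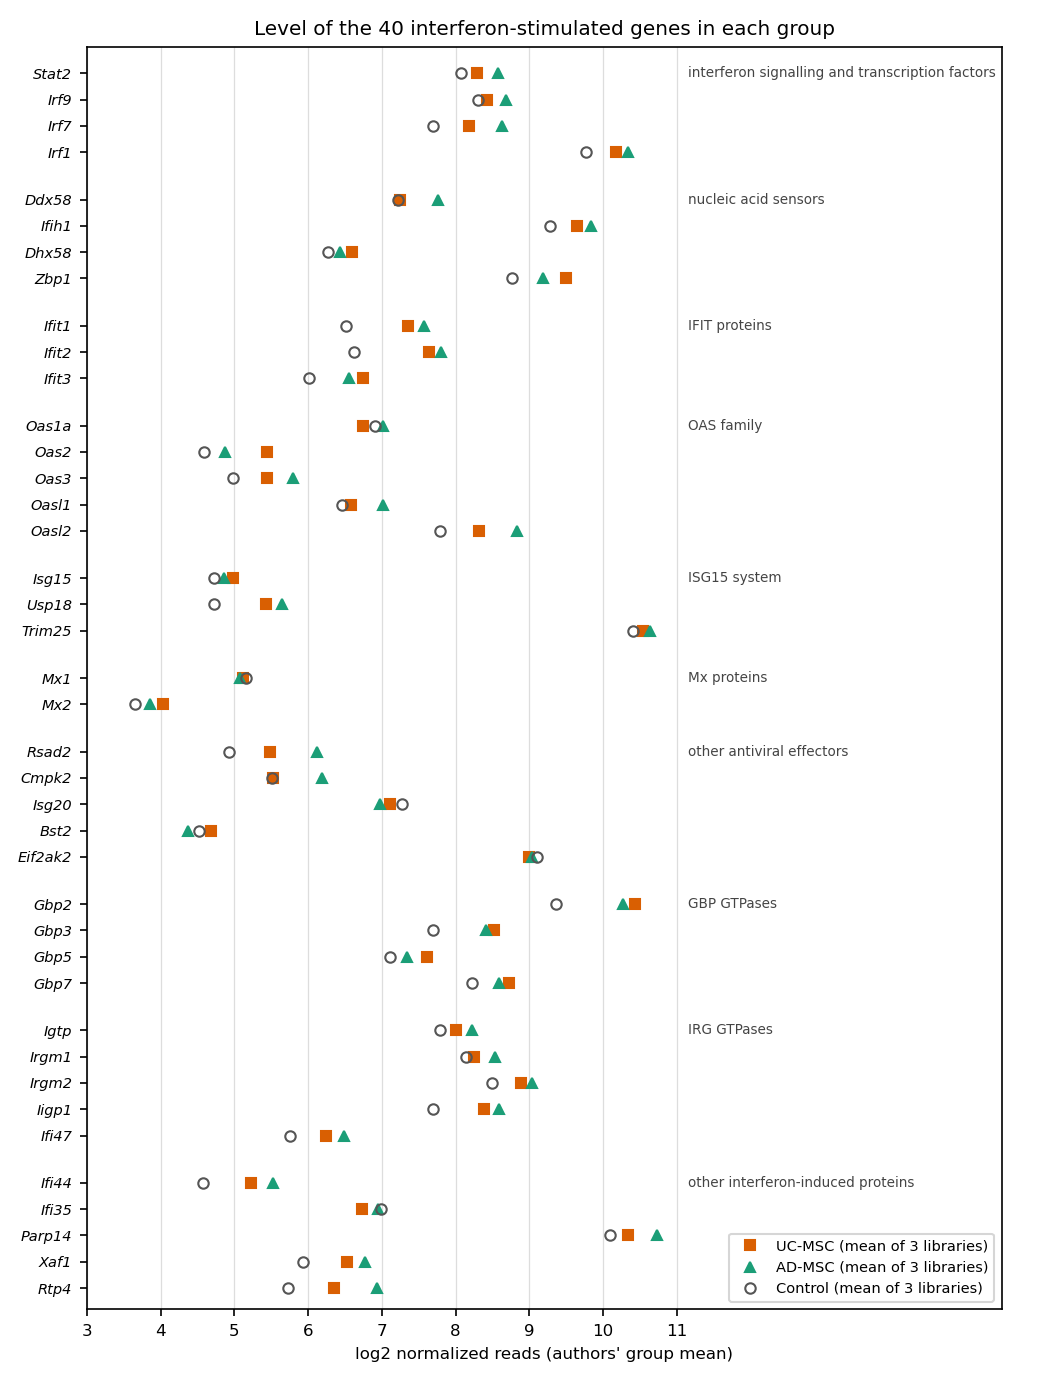
Log2 normalized reads of each of the 40 genes, ordered by role, as the authors' mean of the 3 UC-MSC (squares), 3 AD-MSC (triangles) and 3 control libraries (open circles); no error is drawn because the table holds means. The control circle lies left of both MSC symbols for most genes, and it lies right of both for Mx1, Isg20, Eif2ak2 and Ifi35. Levels of different genes are not per length and are not to be compared.

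The guanylate-binding proteins (GBPs), GTPases induced strongly by interferon gamma that attack pathogen vacuoles, were higher in both MSC groups than in control colons. The 4 genes lie in a row on chromosome 3 between 142496934 and 142638008. Gbp2 had 1376 normalized reads in UC-MSC and 1236 in AD-MSC colons, against 659 in control colons, 2.09-fold higher in UC-MSC (1.06, 0.98 to 1.14) and 1.88-fold higher in AD-MSC colons (0.91, 0.83 to 0.98). Gbp3 had 368 normalized reads in UC-MSC, 342 in AD-MSC and 206 in control colons, with differences of 0.84 and 0.73 in UC-MSC and AD-MSC colons. Gbp5, which also promotes inflammasome assembly, had 196 normalized reads in UC-MSC, 161 in AD-MSC and 139 in control colons, and Gbp7 had 422 normalized reads in UC-MSC and 386 in AD-MSC colons, against 297 in control colons. Each of the 4 genes had its highest value in UC-MSC colons, by 0.11 to 0.28 over AD-MSC colons, an excess that equal totals brought to between 0.01 and 0.18. Of the 50-base stretches of Gbp7, 12.7% occur in other genes, mainly the model Gm43802.

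The immunity-related GTPases (IRGs), which guard or disrupt pathogen vacuoles and are also induced by interferon gamma, were higher in both MSC groups but highest in AD-MSC colons, with Irgm1 changing side in UC-MSC colons under equal totals. Iigp1 (Irga6), an effector of the family, had 333 normalized reads in UC-MSC, 384 in AD-MSC and 207 in control colons, 1.61-fold higher in UC-MSC (0.69, 0.54 to 0.84) and 1.86-fold higher in AD-MSC colons (0.89, 0.76 to 1.02). Ifi47 (Irgd) had 76.0 normalized reads in UC-MSC, 89.4 in AD-MSC and 54.2 in control colons. The regulatory members keep the effectors off the cell's own membranes. Of these, Irgm1 had 305 normalized reads in UC-MSC and 369.6 in AD-MSC colons, against 282 in control colons, Irgm2 had 471 normalized reads in UC-MSC, 527 in AD-MSC and 361 in control colons, and Igtp (Irgm3) had 256 normalized reads in UC-MSC, 300.0 in AD-MSC and 220.3 in control colons. The rows of Igtp and Irgm2 overlap on the same strand in the table, and 11.8% of the 50-base stretches of Igtp occur elsewhere, mainly in Irgm2, so some reads could be counted for either gene.

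Of the remaining interferon-induced genes, Rtp4, a chaperone of membrane receptors, had 81.7 normalized reads in UC-MSC and 122 in AD-MSC colons, against 53.0 in control colons. It had the greatest difference of the 40 genes in AD-MSC colons, 2.30-fold (1.20, 0.95 to 1.45), and was 1.54-fold higher in UC-MSC colons (0.62, 0.32 to 0.92), with 11.6% of its 50-base stretches shared with the model Gm45338. Parp14, an ADP-ribosyltransferase, had 1290 normalized reads in UC-MSC, 1703 in AD-MSC and 1089 in control colons, 1.56-fold higher in AD-MSC (0.65, 0.59 to 0.70) and 1.18-fold in UC-MSC colons (0.24, 0.17 to 0.32). Xaf1, which counters an inhibitor of apoptosis, had 92.5 normalized reads in UC-MSC, 109 in AD-MSC and 61.2 in control colons. Ifi44 had 37.5 normalized reads in UC-MSC and 45.9 in AD-MSC colons, against 23.9 in control colons. Both genes were at least 1.5-fold higher in each MSC group, but in UC-MSC colons neither was so under equal totals (Xaf1 0.46, Ifi44 0.51) or with a pseudocount of 10 (0.53 and 0.49). Ifi35 had 106 normalized reads in UC-MSC, 123 in AD-MSC and 127 in control colons, and its UC-MSC interval lay below 0 (-0.49 to -0.03), but 10.4% of its 50-base stretches lie on the opposite strand of Gm11626, and whether counting used strand is not given in the sources used here. Rows that overlap other genes were also Irf9 with Rnf31, Irf7 with Phrf1, Irf1 with Gm17334, Ifi47 with Olfr56, and, with few reads in the partner, Dhx58, Oasl1 and Eif2ak2.

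**Figure D3:**
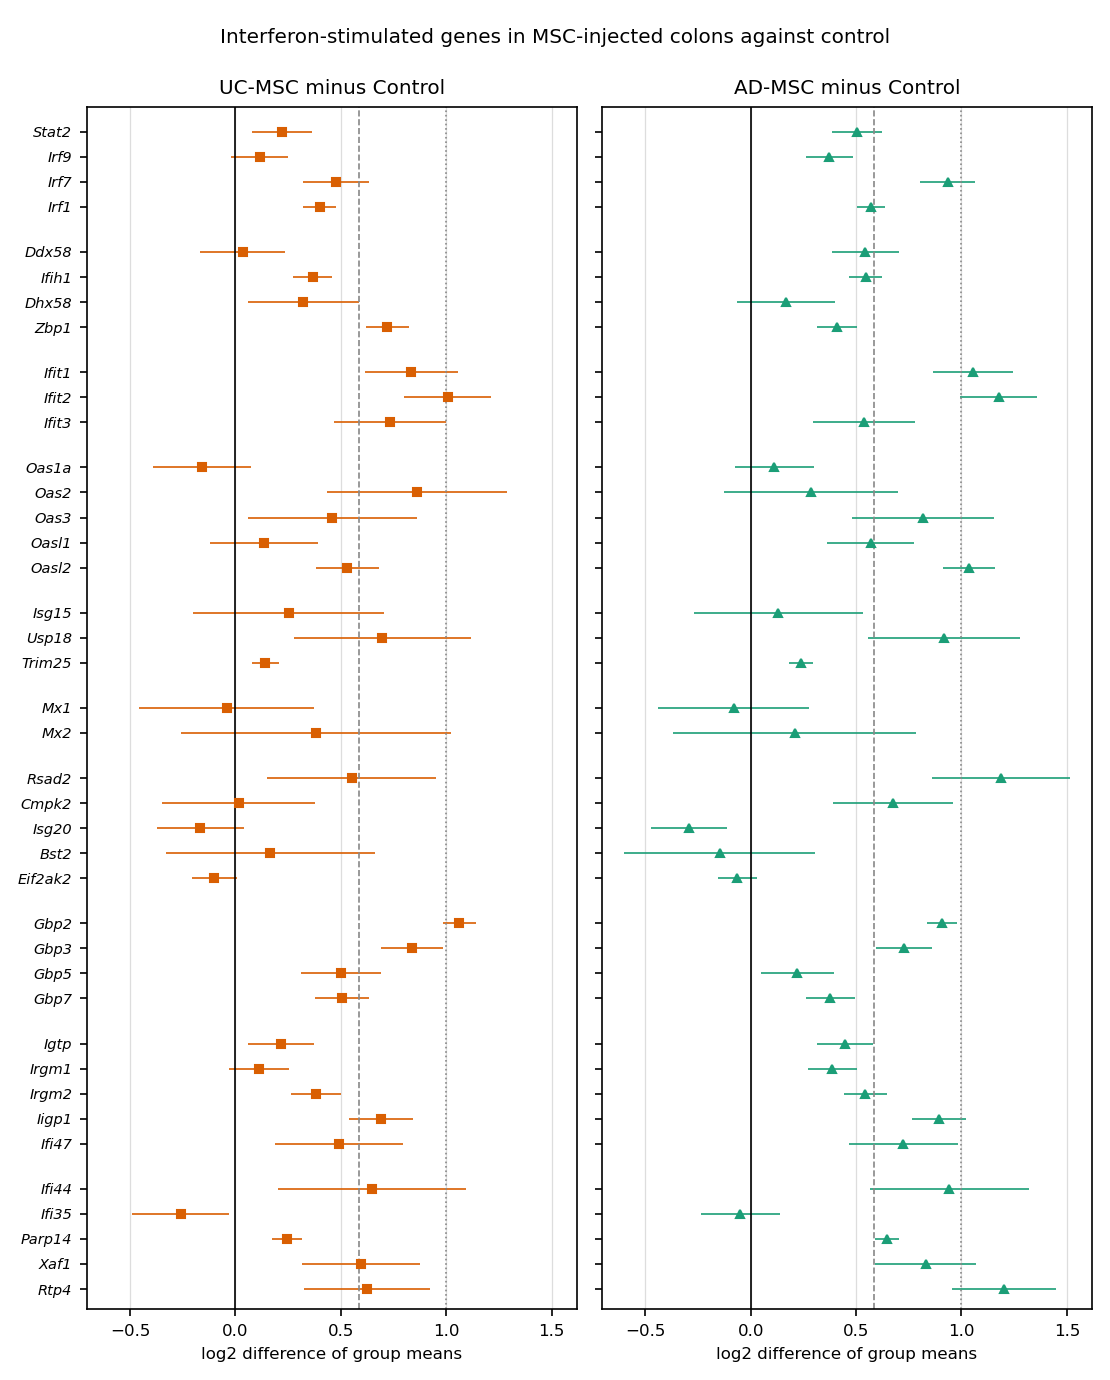
Log2 difference of each of the 40 genes from control in UC-MSC colons (left) and AD-MSC colons (right), in the order of roles used in the plot of levels; bars are 95% intervals from read counts, which cover counting error only, and the dashed and dotted lines mark 1.5-fold and 2-fold. Gbp2 and Ifit2 reach the dotted line in UC-MSC colons, and Rtp4, Rsad2, Ifit2, Ifit1 and Oasl2 reach it in AD-MSC colons.

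Over the 40 genes, the counting interval lay above 0 for 27 genes, below 0 for 1 (Ifi35) and held 0 for 12 in UC-MSC colons against control. In AD-MSC colons it lay above 0 for 30, below 0 for 1 (Isg20) and held 0 for 9. A gene that cleared its counting interval was not thereby shown to differ between mice.

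The direct comparison of both cell sources asked whether the response differed with the origin of the cells. In UC-MSC colons 13 of the 40 genes (32.5%) were higher than in AD-MSC colons, beside 48.8% of all 15074 genes compared, and 27 were lower. The median log2 difference was -0.21, against -0.01 for all genes. None was at least 1.5-fold higher, beside 12.3% of all genes (4.5% at least 2-fold higher). At least 1.5-fold lower were Cmpk2 and Rsad2 (5.0% of the 40, beside 7.5%), a count that was 0 with a pseudocount of 10 and 5 under equal totals, and none was at least 2-fold lower, beside 2.3%. All 40 genes lay between the 5th and the 95th percentile of all genes, -0.72 and 0.96.

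The roles leaned differently between the cell sources. Lower in UC-MSC than in AD-MSC colons were all 4 signalling factors, all 5 IRG genes and all 5 of the remaining interferon-induced genes, with medians of -0.27, -0.23 and -0.30. Higher in UC-MSC colons were all 4 GBP genes, with a median of 0.14 and a range of 0.11 to 0.28, and the interval of Gbp3 held 0. Under equal totals all of these directions held, but the GBP median was 0.04, with Gbp2 at 0.06, Gbp3 at 0.01 and Gbp7 at 0.03. Cmpk2 differed by -0.66 (-0.99 to -0.33) and Rsad2 by -0.63 (-0.97 to -0.30). Next were Rtp4 at -0.58, Ddx58 at -0.51 and Oasl2 at -0.51, all 3 with intervals below 0. On the other side, Oas2 differed by 0.58 (0.18 to 0.97), Zbp1 by 0.31 (0.22 to 0.41) and Gbp5 by 0.28 (0.10 to 0.46). The counting interval lay below 0 for 21 genes, above 0 for 5 and held 0 for 14.

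**Figure D4:**
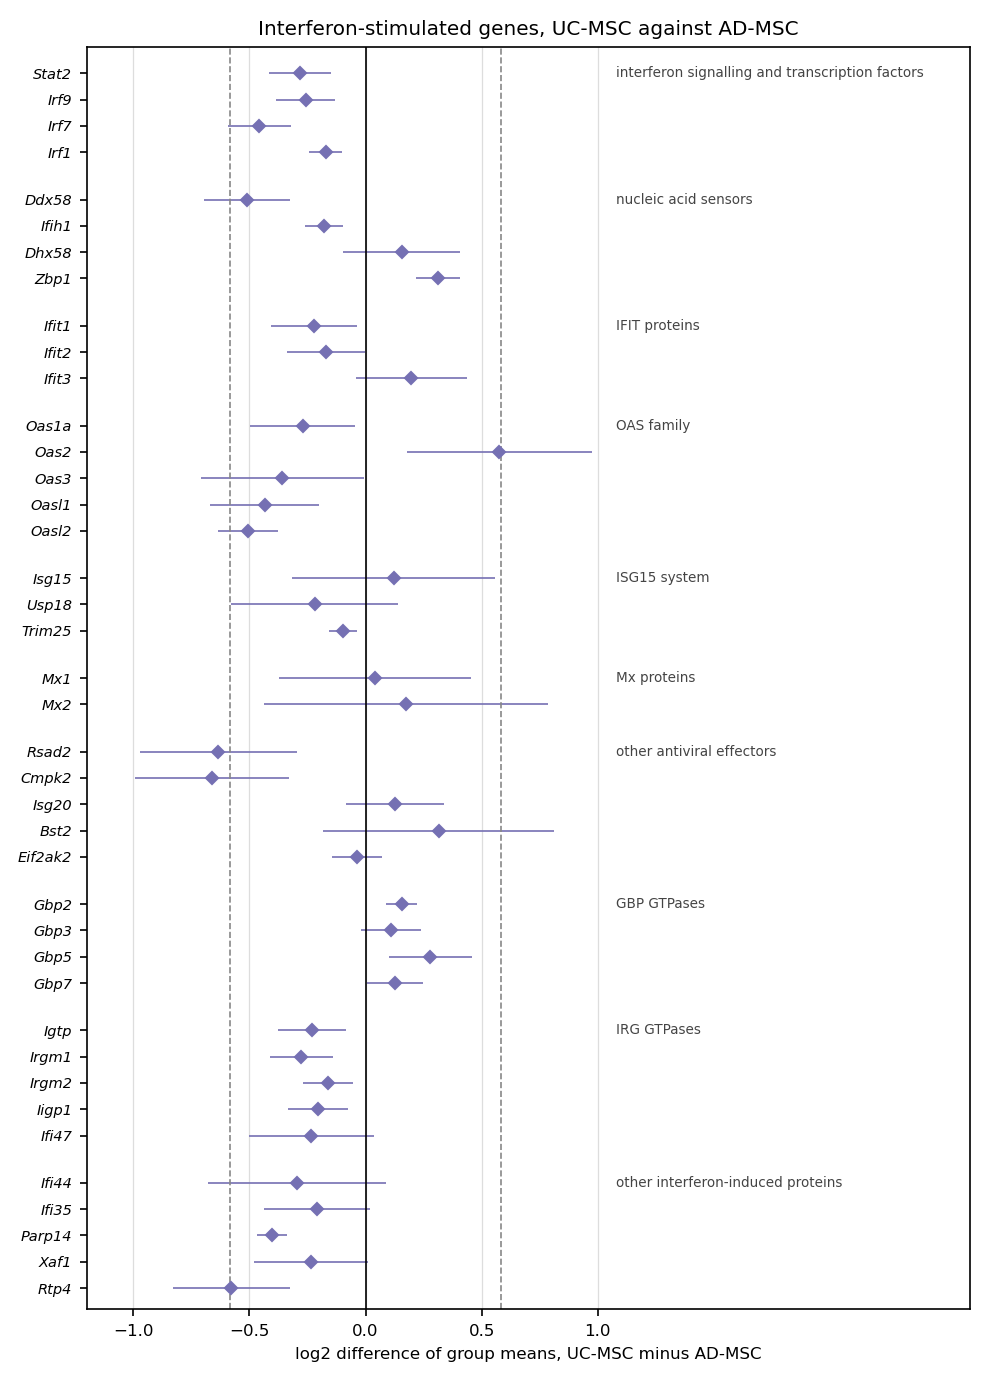
Log2 difference of each of the 40 genes, UC-MSC minus AD-MSC, grouped by role, with 95% intervals from read counts that cover counting error only; dashed lines mark 1.5-fold in each direction. All 4 GBP genes lie right of 0 and all 5 IRG genes left of it, and Cmpk2 and Rsad2 lie beyond the dashed line on the left, which with a pseudocount of 10 they did not (-0.56 and -0.54).

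The interferons themselves were scarcely read. Of 19 interferon genes in the table, 12 had reads in some group, and Ifnk was the one with reads in every library, at 8.72 normalized reads in UC-MSC, 10.9 in AD-MSC and 6.85 in control colons. Ifng had 1.72, 1.5 and 1.43 normalized reads in UC-MSC, AD-MSC and control colons, on a scale whose floor is 1, and Ifnb1 had no reads in any group. Reads at or near the floor, at most 3 raw reads as a group mean, were also listed for other interferon genes. These were Ifna5, Ifna6, Ifna9, Ifna11, Ifna12, Ifna13, Ifna14, Ifne, Ifnz and Il28a. No ligand reached the minimum for a comparison, so a difference in the ligands was not detectable at this depth.

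Of 12 receptors, kinases and feedback genes, 8 were higher in UC-MSC and 5 in AD-MSC colons when set against control, with medians of 0.15 and -0.01. These were 66.7% and 41.7% of the list, beside 48.3% and 48.9% of all genes. Ifnar2, a subunit of the type I receptor, had 174 normalized reads in UC-MSC and 121 in AD-MSC, against 101 in control colons, a difference of 0.78 in UC-MSC and 0.25 in AD-MSC colons. Socs3, a feedback inhibitor of cytokine signalling that also answers to interleukins, had 432 in UC-MSC and 168 in AD-MSC, against 393 in control colons. It was the gene of this list at least 2-fold lower in AD-MSC colons (-1.23). Of 13 sensing adaptors and upstream factors, 7 were higher in UC-MSC and 4 in AD-MSC colons when set against control. These were 53.8% and 30.8% of the list, again beside 48.3% and 48.9% of all genes. Tlr7 had 28.6 and 14.0 in UC-MSC and AD-MSC, against 9.60 in control colons, and Tlr9 had 33.5 and 7.36, against 18.7. Both encode sensors of nucleic acid in endosomes, and each was highest in UC-MSC colons. Tlr3, another such sensor, was highest in AD-MSC colons, with 167 in UC-MSC and 231 in AD-MSC, against 159 in control colons.

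Other interferon-stimulated genes outside the 40 also lay mostly above control. Of 39 compared, 30 were higher in UC-MSC than in control colons (median 0.44), and of 38 compared, 25 were higher in AD-MSC colons (median 0.21). These were 76.9% and 65.8% of those compared, beside 48.3% and 48.9% of all genes. Between cell sources their direction was opposite to that of the 40 genes, with UC-MSC values above AD-MSC values for 27 of 38 (median 0.14). That share was 71.1%, beside 48.8% of all genes. Ifitm1, an antiviral membrane protein, had 113 normalized reads in UC-MSC and 42.9 in AD-MSC, against 40.2 in control colons. Ifi204, a DNA sensor of the myeloid lineage, had 73.7 in UC-MSC and 26.2 in AD-MSC, against 36.0 in control colons, and Ifi205 had 44.3 and 18.9, against 17.4. In AD-MSC colons 1 of this list was at least 2-fold higher and 2 were at least 2-fold lower than in control colons. Of all genes, 1.69% and 2.01% passed these limits. In UC-MSC colons 4 of the list were at least 2-fold higher, beside 5.09% of all genes, and 0 at least 2-fold lower, beside 2.66%. Mov10, an RNA helicase, had 163 in UC-MSC and 208 in AD-MSC, against 102 in control colons. Ifi27l2a had 59.0 in UC-MSC and 35.7 in AD-MSC, against 72.2 in control colons (-1.02 in AD-MSC), and Ms4a4c, not read in every library, had 14.1 and 5.30, against 15.0. The list of genes that answer to interferon gamma had 20 of 27 higher in UC-MSC (median 0.31) and 18 of 27 higher in AD-MSC colons (median 0.21). Beside all genes (48.3% and 48.9%), these were 74.1% and 66.7% of that list. Ido1, the tryptophan-degrading enzyme, had the greatest difference there, with 83.9 in UC-MSC and 109.6 in AD-MSC, against 16.7 in control colons. Serpina3g, a protease inhibitor, had 61.1 in UC-MSC and 20.4 in AD-MSC, against 55.1 in control colons, a difference of -1.44 in AD-MSC colons. Cxcl10, a chemokine induced by interferon gamma, was lower in both, with 22.8 in UC-MSC and 24.8 in AD-MSC, against 42.4 in control colons. Cxcl9, another such chemokine, was not lower. It differed from control by 0.12 in UC-MSC (-0.24 to 0.49) and 0.19 in AD-MSC colons (-0.12 to 0.49), and both intervals held 0.

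Markers of other cell types moved between the groups as well. Of all genes compared, 48.3% were higher in UC-MSC and 48.9% in AD-MSC than in control colons. In whole tissue, fewer cells of a type and less RNA per cell cannot be told apart. Macrophage markers were higher in UC-MSC colons for 11 of 12 genes (median 1.23), with a summed level of 2564 normalized reads in UC-MSC and 1210 in AD-MSC, against 1302 in control colons. Neutrophil markers were higher in UC-MSC colons for 5 of 5 compared (median 1.63) and summed to 610 in UC-MSC and 185 in AD-MSC, against 239 in control colons. Fibroblast markers summed to 17714 in UC-MSC and 9428 in AD-MSC, against 8230 in control colons (6 of 6 higher in UC-MSC, median 1.03), and endothelium markers to 1686 and 1208, against 936 (5 of 5, median 0.82). B cell markers were lower in both MSC groups for 6 of 6 genes and summed to 96.0 in UC-MSC and 26.2 in AD-MSC, against 222 in control colons. Of 6 markers of plasmacytoid dendritic cells, which make type I interferon, 3 reached the minimum for a comparison, with medians of 0.17 in UC-MSC and 0.09 in AD-MSC colons. Of these, Pacsin1 had 40.8 normalized reads in UC-MSC and 59.9 in AD-MSC, against 36.2 in control colons, Klk1 had 5757 and 7949, against 7457, and Tcf4 had 897 and 701, against 707. Siglech, a defining marker of these cells, stayed below the minimum, at 7.62 in UC-MSC and 3.49 in AD-MSC, against 7.27 in control colons. Whether the Klk1 and Tcf4 reads came from plasmacytoid dendritic cells was not tested, so the medians are not a measure of these cells. T and NK cell markers summed to 123 in UC-MSC and 105 in AD-MSC, against 111 in control colons, and their members went in different directions. Cd4 had 77.3 in UC-MSC and 32.2 in AD-MSC, against 47.2 in control colons. Cd3d, part of the T cell receptor complex, had 2.73 in UC-MSC colons and differed by 0.02 between AD-MSC and control colons. Cd3g, of the same complex, had 4.56 and 8.38, against 11.7. Cd8a, a marker of cytotoxic T cells, had 8.17 in UC-MSC and 14.9 in AD-MSC, against 6.89 in control colons (log2 difference 1.11 in AD-MSC, 0.42 to 1.81), and Gzmb, a cytotoxic granule protease, had 5.42 and 12.7, against 5.19. Of the 12 listed, 5 reached the minimum for AD-MSC against control colons and 1, Cd4, for UC-MSC against control colons. In AD-MSC colons, where the 40 genes had their greater median, endothelium markers were higher for 5 of 5 genes, with a median of 0.30 (Kdr 0.69 and Cdh5 0.54). The medians were 0.05 for macrophage, 0.14 for fibroblast, 0.09 for colon epithelium, -3.19 for B cell and -0.55 for neutrophil markers, the last from 2 genes compared. Ribosomal protein genes were lower for 19 of 20 in each MSC group (medians -0.46 in UC-MSC and -0.29 in AD-MSC). No marker gene of these cell types lacked reads in every library of a group, although Tbx21 was listed at the floor of 1 in UC-MSC colons. The part of these differences in the values of the 40 genes was not tested.

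**Figure D5:**
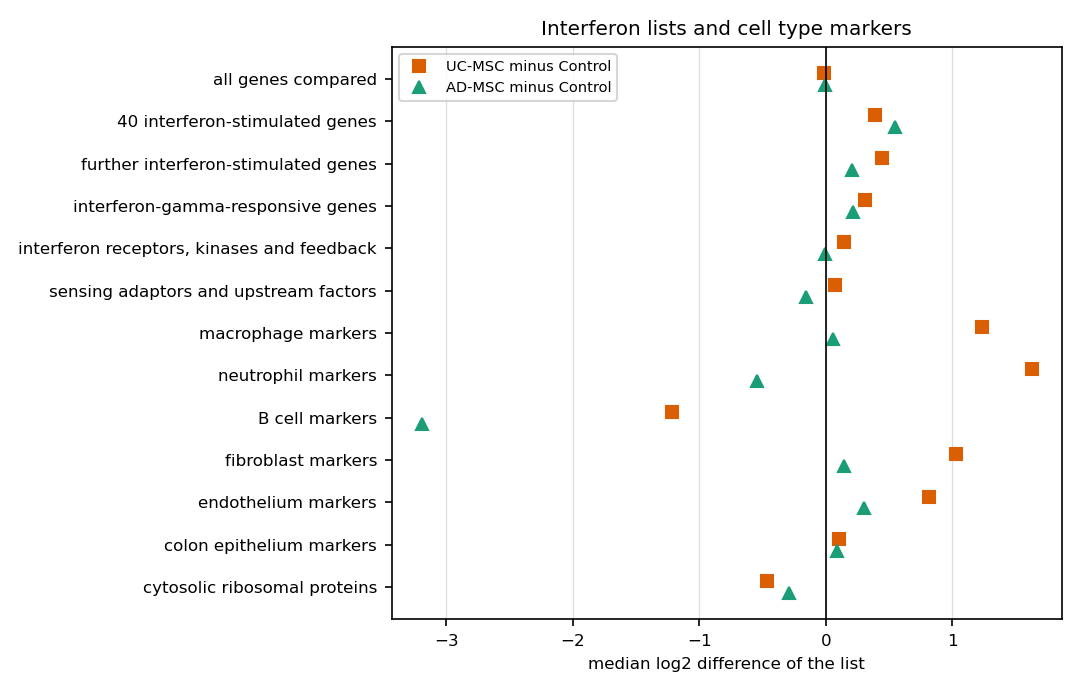
Median log2 difference from control of all genes compared, the 40 interferon-stimulated genes, related interferon lists and cell type markers, in UC-MSC (squares) and AD-MSC colons (triangles). In AD-MSC colons the 40 genes (0.54) lie right of the macrophage (0.05) and fibroblast (0.14) markers, and in UC-MSC colons (0.39) they lie left of both (1.23 and 1.03).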

How the data were processed

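Total RNA of medial colon was made into libraries with a stranded total RNA kit, and samples with a low RNA integrity number were excluded by the authors. The submitters' notes name bcl2fastq 1.8.4, DESeq and the build GRCm38, also called mm10. Strand NGS is the software of the study's methods. The aligner is not given in the sources used here, nor is counting by strand, so overlapping and antisense rows cannot be told apart. The deposited table gives for each group 1 column of raw reads (a geometric mean over the libraries with reads) and 1 of log2 normalized reads (the authors' mean over the 3 libraries), with values under 1 normalized read set to 1. Single libraries were not used here. Normalization by size factors sets groups to a common level for the typical gene, so a shift of total RNA per colon would not appear in these values.

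The authors' log2 normalized means were subtracted for UC-MSC against control, AD-MSC against control and UC-MSC against AD-MSC, keeping genes whose mean over the 2 groups reached 10 normalized reads. A test planned for single libraries could not be run. Counting intervals were the difference ± 1.96 times the square root of summed reciprocal reads, taking 3 libraries of the raw group mean. They were given where every library had reads. The differences and fold counts were tested on copies of the control values with known changes, and the motif search on planted GAS letters. The intervals were not tested in this way. All 40 genes are named, with the 3 greatest differences of related lists as candidates for naming, plus interferons with reads, and 1 further gene of that rule is not reported here. Cxcl9, Cxcl10, Siglech, Cd3d, Gzmb, Tbx21 and Epcam lie outside that rule and were chosen after their values were seen. Members and lists were chosen with earlier results of these data known. Genes sharing over 10% of their 50-base stretches with another gene (GENCODE transcripts) were marked uncertain. Alternatives were the pseudocount, the filter on low values, scaling and the set of genes. Python 3.11.15, numpy 2.4.6, pandas 2.3.3 and matplotlib 3.10.9 were used.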

Additional observations from a re-analysis of the deposited data

How the results depend on the processing

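The medians and counts of the 40 genes were recomputed under a minimum mean of 50 normalized reads or none, pseudocounts of 1 and 10, both other scalings, protein-coding genes only, genes read in every library, and without near-identical copies. In all, 126 recomputed values stayed within 0.1 (medians) or 1.5 times (counts) of the first value, 9 did not, and no median changed direction. With a pseudocount of 10, 3 genes were at least 2-fold higher in AD-MSC and 1 in UC-MSC than in control colons, and 0 were at least 1.5-fold lower in UC-MSC than in AD-MSC colons. With a pseudocount of 1, 1 gene was at least 2-fold higher in UC-MSC than in control colons. With equal totals, the UC-MSC median against control was 0.26, with 0 genes at least 2-fold and 7 at least 1.5-fold higher, and 5 genes were at least 1.5-fold lower in UC-MSC than in AD-MSC colons. The split of all genes at least 2-fold higher and lower in UC-MSC colons was then 3.47% and 3.87%, against 5.09% and 2.66% before. Mx1 changed side between UC-MSC and AD-MSC colons. With groups centred on the median of all genes, 1 gene reached 1.5-fold higher in UC-MSC colons against AD-MSC colons. Zbp1 and Gbp2 differed by 0.59 and 0.93 from control in UC-MSC colons under equal totals. These changes follow from the settings, since a pseudocount shrinks differences of low values and a scaling moves every gene by 1 amount.

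No paired analysis was possible because the table holds 1 mean per group and single libraries were not used. For the same reason replicates could not be left out in turn, and whether 1 mouse decides a group mean is unknown. Depth limits the low genes most, such as Mx2 with 11.7, 18.3 and 14.4 raw reads in UC-MSC, AD-MSC and control colons.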
